A study of Mus musculus with 18 samples.

Results

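The genes described here encode the content of the insulin secretory granule: insulin and islet amyloid polypeptide, the enzymes that process their precursors, and the granins that are packed with them. They were chosen as the rows of the deposited expression table whose platform annotation gave exactly 1 gene symbol and whose symbol was on a list of 10 genes (Ins1, Ins2, Iapp, Pcsk1, Pcsk2, Cpe, Chga, Chgb, Scg2 and Scg5), whatever their values were. Of these, 8 genes were found among the 22180 genes with such a row, each with a single probe set. Ins1 and Pcsk2 had no row of this kind and were not analysed here.

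Pancreatic islets of 16-week-old C57BL/6 mice of both sexes were compared between 3 genotypes on 2 diets, with 3 arrays in each of the 6 groups. The knockouts were labelled RIPCre; TRAF2loxP/loxP and RIPCre; TRAF3loxP/loxP, where Cre recombinase under the rat insulin promoter deletes the floxed gene in beta cells, and the labels call the controls floxed littermates without giving their Cre status or the floxed gene. If the controls lack Cre, an effect of Cre itself cannot be told apart from that of the deletions. Chow groups had standard feeding, and the high-fat diet (HFD) groups had a diet with 45% of its energy as fat for 8 weeks from 8 weeks of age. Both knockouts were described as models of constitutive activity of NIK, a kinase that acts upstream of non-canonical NF-kB, in beta cells, and the question for these genes is whether the transcripts of granule content differed with genotype or diet.

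Proinsulin and proIAPP enter the immature granule, where the prohormone convertases PC1/3 and PC2 cut them at pairs of basic residues and carboxypeptidase E trims the residues left at the cut ends. Chromogranin A, chromogranin B and secretogranin II are acidic proteins that condense with the hormones as the granule forms, and 7B2 is the chaperone that PC2 needs to become active. Much of this content leaves the cell with insulin when the granule fuses with the plasma membrane, and most of these proteins are also made in alpha, delta and PP cells, so whole islets do not show them in beta cells alone.

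The sequences just upstream of 4 of these genes are shown because granin genes and Pcsk1 are known to respond to cAMP through the cAMP response element (CRE), and because the results below turn on these genes; they were picked after their values were seen. RefSeq sequences of the 250 bases before the annotated start were available for 8 of the 10 genes named in the rule, on build GRCm38.p6. These are not the 8 measured genes, since they include Ins1 and Pcsk2 and lack Ins2 and Cpe. The files state no build of their own. They are written 5′ to 3′ on the strand of the gene. Capitals mark the full CRE, TGACGTCA, and any further copy of its first 5 letters, TGACG.
Pcsk1 (chr13:75089607-75089856, plus strand): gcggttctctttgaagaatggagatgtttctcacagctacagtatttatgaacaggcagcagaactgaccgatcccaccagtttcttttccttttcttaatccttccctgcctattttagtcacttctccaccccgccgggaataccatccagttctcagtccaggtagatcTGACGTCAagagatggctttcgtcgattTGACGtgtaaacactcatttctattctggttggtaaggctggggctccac
Chgb (chr2:132781392-132781641, plus strand): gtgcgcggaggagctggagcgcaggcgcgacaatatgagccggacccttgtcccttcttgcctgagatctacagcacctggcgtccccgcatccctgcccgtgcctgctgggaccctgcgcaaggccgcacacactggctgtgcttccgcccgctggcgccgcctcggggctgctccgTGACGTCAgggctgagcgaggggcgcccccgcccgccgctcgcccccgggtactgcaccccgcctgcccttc
Scg2 (chr1:79440027-79440276, minus strand): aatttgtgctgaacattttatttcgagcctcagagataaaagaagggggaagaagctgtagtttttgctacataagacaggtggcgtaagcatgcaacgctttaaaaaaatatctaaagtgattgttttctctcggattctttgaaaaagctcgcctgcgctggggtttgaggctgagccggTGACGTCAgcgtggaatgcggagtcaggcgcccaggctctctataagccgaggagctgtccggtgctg
Chga (chr12:102554691-102554940, plus strand): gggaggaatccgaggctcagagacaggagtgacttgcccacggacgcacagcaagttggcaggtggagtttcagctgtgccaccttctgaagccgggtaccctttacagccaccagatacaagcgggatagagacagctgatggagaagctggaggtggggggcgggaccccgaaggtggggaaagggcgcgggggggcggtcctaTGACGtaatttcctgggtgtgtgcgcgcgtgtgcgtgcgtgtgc

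The full CRE lay 78 to 71 bases before the start of Pcsk1, 72 to 65 bases before that of Chgb and 68 to 61 bases before that of Scg2. It was searched on both strands, on which it reads the same, and 1.55% of 32851 mouse promoters of the same length held it. Chga held the shorter TGACG at 44 to 40 bases before its start, a stretch of letters found on either strand in 17.8% of promoters, which includes every promoter with the full CRE. Ins1 and Iapp held neither, and Scg5 and Pcsk2 held the shorter form. None of the 8 promoters held TATAAA (12.4% of all promoters), and 4 of them held GGGCGG on either strand (32.7%). A match to the NF-kB site was found in Pcsk2 alone of the 8, against 3.9% of all promoters. Such matches describe letters in these windows. Of the 3 genes with the full CRE, Scg2 was called in a comparison below, and Chgb and Pcsk1 were not.

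Signals of the members lay near the top of each array, whose highest gene value was between 13.49 and 13.64 on the log2 scale and whose median was between 4.8 and 4.96. Chga came within 0.351 log2 units of the maximum of its array and was never further than 1.01 below it, ranking between 3rd and 32nd of all genes. Iapp was 0.697 to 1.02 below the maximum. Chgb, Scg2, Cpe and Pcsk1 came within 0.863, 0.96, 1.00 and 1.10 of it and Ins2 within 1.44, whereas Scg5 stayed at least 2.99 below. Ins2 ranked between 76th and 319th of all genes, and whether its probe set levels off below the array maximum was not tested. A probe near its maximum has little room to read higher, and what this did to the size of the differences was not tested.

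Values differed between arrays of 1 group in a way the members shared. All 8 members lay below their group's mean in chow TRAF2 knockout 1, HFD TRAF3 knockout 3 and chow TRAF3 knockout 3, by 0.241, 0.24 and 0.238 log2 units on average. In HFD control 3, chow control 3 and HFD TRAF2 knockout 3, 7 of 8 did. Markers of beta cells (7 of 7), alpha cells (3 of 3) and delta cells (2 of 2) were above the array median in every array, and so were 7 of 9 acinar and 6 of 7 ductal markers. The acinar genes Ctrb1 and Cpa1 read 13.08 to 13.59 and 12.85 to 13.51, near the array maximum. Try5 and Amy2b, also acinar, lay below the median in 6 arrays each. Of the 8 lymphocyte markers, 1 was above the median in every array. The lymphocyte score, the mean deviation of those markers from their average over all arrays, was highest in chow TRAF2 knockout 1 (2.10) and HFD TRAF3 knockout 2 (1.98). Traf2 itself read 7.04 to 7.34 in chow controls, 7.22 to 7.50 in chow TRAF2 knockouts, 6.46 to 7.03 in HFD controls and 6.90 to 7.15 in HFD TRAF2 knockouts, with overlapping ranges on both diets. Whether its probes lie in the deleted part is not given in the sources used here, and non-beta cells keep the gene, so these values do not check the labels. Read from Xist and Y-linked genes, 1 array of each chow group, 2 of each HFD knockout group and all 3 HFD controls were female. Sex was thus not balanced between the diets, and comparisons of HFD with chow also differ in sex.

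**Figure D1:**
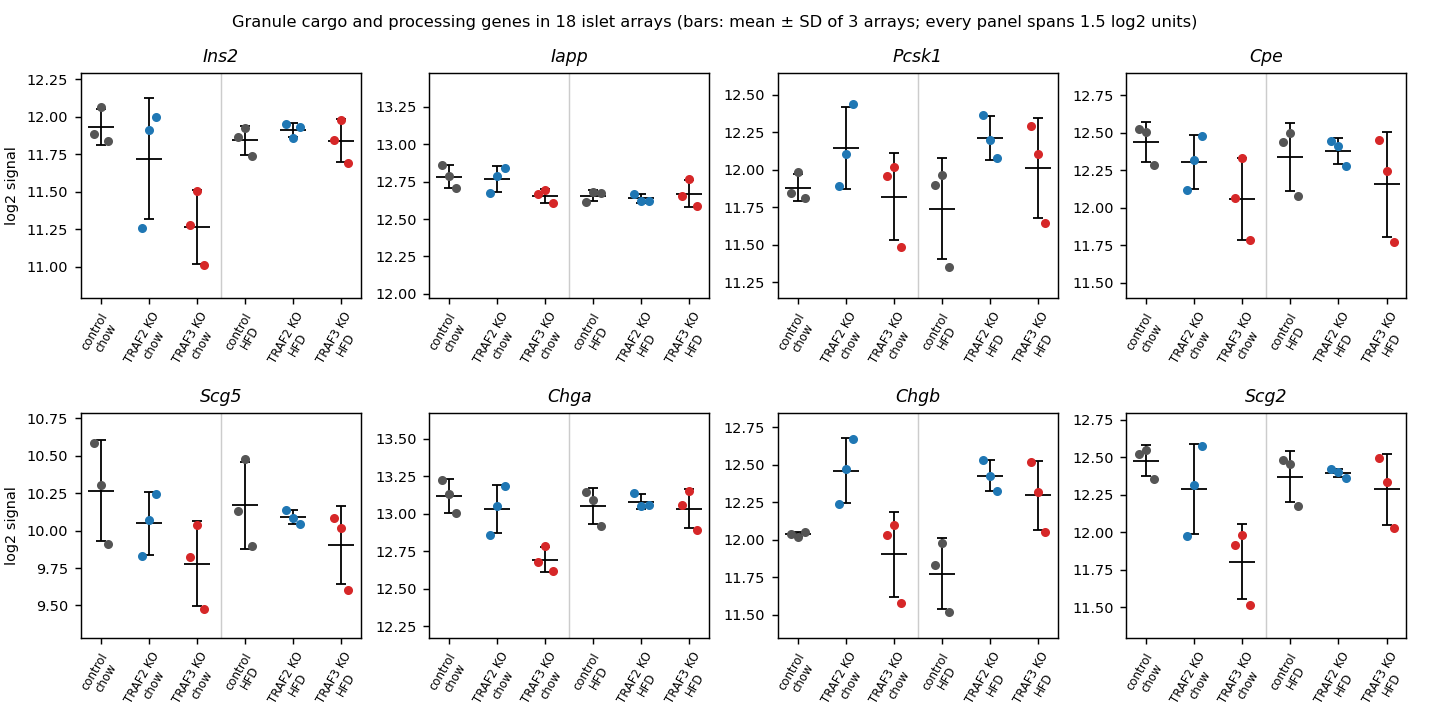
Log2 signal of the 8 measured genes in each of the 18 arrays, by genotype and diet (points: arrays; bars: mean and SD of 3 arrays; the axes start at different levels but each spans 1.5 log2 units). Ins2, Chga and Scg2 have their lowest group means in the chow TRAF3 knockouts, Chgb is higher in 3 of the 4 knockout groups than in the control of the same diet, and Iapp spans only 0.27 over all arrays.

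Ins2, one of the mouse insulin genes, had its lowest group mean in islets of chow-fed TRAF3 knockouts. It read 11.88, 12.07 and 11.84 in the chow controls and 11.28, 11.50 and 11.01 in the chow TRAF3 knockouts. The ranges did not overlap. The difference was -0.67 ± 0.17 on the log2 scale (limma's standard error, n = 3 and 3, 95% interval -1.03 to -0.30), or 0.631 times the control, with an adjusted p of 0.0218 (limma with Benjamini-Hochberg adjustment over all genes). In the chow TRAF2 knockouts Ins2 read 11.25, 11.91 and 11.996, so 1 array sat with the TRAF3 knockouts and the others with the controls, and the difference of -0.21 ± 0.17 from control did not pass (adjusted p = 0.958). That low array was chow TRAF2 knockout 1, which had the highest lymphocyte score and a mean deviation of -0.837 for beta cell markers, Ins2 among them. HFD TRAF3 knockout 2, with the next lymphocyte score (1.98), had the highest Ins2 value of its group (11.98). The part of these scores in the Ins2 values was not tested.

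On HFD the 3 genotypes had near-equal Ins2 means. It read 11.86, 11.92 and 11.74 in controls, 11.95, 11.86 and 11.93 in TRAF2 knockouts and 11.84, 11.98 and 11.69 in TRAF3 knockouts. The TRAF3 knockout minus control difference was 0.00, with a 95% interval of -0.37 to 0.36. Within the TRAF3 knockouts Ins2 rose by 0.57 ± 0.17 from chow to HFD (limma adjusted p = 0.0498), with no overlap. This call was at the threshold, and it held in 10 of 30 alternative settings, with adjusted p from 0.0106 to 0.271. The change of the TRAF3 effect with diet was 0.66 ± 0.24 (interval 0.15 to 1.18), which did not pass over all genes (adjusted p = 0.123).

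Iapp, which encodes the amylin peptide co-secreted with insulin, varied least of the members. Its group means lay within 0.15 log2 units of each other and all 18 arrays within 0.27, between 12.59 and 12.86. Chow controls read 12.86, 12.79 and 12.71 and chow TRAF3 knockouts 12.67, 12.69 and 12.60. Although these ranges did not overlap, the difference of -0.13 ± 0.09 (interval -0.33 to 0.07) did not pass in limma (adjusted p = 0.473). The neighbouring groups in the order of Iapp means, from HFD TRAF2 knockout at the bottom to chow control at the top, all overlapped.

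Among the processing genes, Pcsk1, which encodes PC1/3, read higher in TRAF2 knockouts, without a call. On HFD it was 11.90, 11.97 and 11.35 in controls and 12.37, 12.20 and 12.08 in TRAF2 knockouts. These ranges did not overlap, and the difference was 0.47 ± 0.21 (interval 0.04 to 0.91, unadjusted p = 0.0345, limma adjusted p = 0.833). On chow the controls read 11.85, 11.99 and 11.81 and the TRAF2 knockouts 11.89, 12.11 and 12.44, which overlapped. For TRAF3 knockouts the difference from control was -0.06 ± 0.21 on chow and 0.27 ± 0.21 on HFD. Pcsk1 was therefore the member, with Chgb, whose value in the chow TRAF3 knockouts lay closest to control relative to its error. No alternative setting called Pcsk1 in either TRAF2 comparison, in the TRAF3 comparison on HFD or in both knockouts together.

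Cpe, the carboxypeptidase that trims the cut peptides, and Scg5, which encodes 7B2, were lowest in the chow TRAF3 knockouts but did not pass. Cpe read 12.52, 12.51 and 12.28 in chow controls and 12.06, 12.33 and 11.78 in chow TRAF3 knockouts, a difference of -0.38 ± 0.18 (interval -0.76 to 0.01, limma adjusted p = 0.215). Scg5 read 10.59, 10.30 and 9.91 in chow controls and 9.82, 10.04 and 9.48 in chow TRAF3 knockouts, a difference of -0.49 ± 0.20 (interval -0.91 to -0.06, limma adjusted p = 0.139). Both pairs of ranges overlapped. On HFD the TRAF3 knockout differences were -0.18 for Cpe and -0.27 for Scg5, with adjusted p of 0.71 and 0.593 in limma.

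Of the granins, Chga and Scg2 fell in the chow TRAF3 knockouts. Chga, which encodes chromogranin A, read 13.23, 13.13 and 13.003 in chow controls and 12.68, 12.78 and 12.62 in chow TRAF3 knockouts. The difference was -0.43 ± 0.12 (interval -0.67 to -0.18), or 0.744 times the control, with a limma adjusted p of 0.027. The chow TRAF3 knockouts also lay below all 3 chow TRAF2 knockouts, at 12.86, 13.05 and 13.18. The call for Chga was lost with each array centred on its median (-0.40, adjusted p = 0.062), with quantile normalization applied again (-0.40, 0.064) and with only the compared samples in the fit (-0.43, 0.0729), all in limma, while the difference itself moved little.

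Scg2, which encodes secretogranin II, the precursor of secretoneurin, read 12.52, 12.55 and 12.36 in chow controls and 11.92, 11.98 and 11.52 in chow TRAF3 knockouts. The difference was -0.67 ± 0.17 (interval -1.03 to -0.32), or 0.628 times the control, with a limma adjusted p of 0.0178. On HFD Scg2 was 12.48, 12.45 and 12.17 in controls and 12.49, 12.34 and 12.03 in TRAF3 knockouts, which overlapped. From chow to HFD within the TRAF3 knockouts the difference was 0.48 for Scg2 and 0.34 for Chga. Both pairs of ranges stood apart, and neither passed (limma adjusted p = 0.0892 and 0.0843).

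Chgb, which encodes chromogranin B, read higher than in the controls of the same diet in every array of the knockout groups other than the chow TRAF3 knockouts. On chow it was 12.04, 12.02 and 12.05 in controls, 12.24, 12.47 and 12.67 in TRAF2 knockouts and 12.03, 12.10 and 11.58 in TRAF3 knockouts. On HFD it was 11.83, 11.98 and 11.52 in controls, 12.53, 12.42 and 12.33 in TRAF2 knockouts and 12.52, 12.32 and 12.06 in TRAF3 knockouts. The knockout ranges lay wholly above control in all but the chow TRAF3 comparison. The differences were 0.42 ± 0.17 for TRAF2 on chow, 0.65 ± 0.17 for TRAF2 on HFD (interval 0.30 to 1.01), 0.52 ± 0.17 for TRAF3 on HFD and -0.13 ± 0.17 for TRAF3 on chow.

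None of these Chgb differences passed over all genes, with limma adjusted p of 0.66, 0.184, 0.118 and 0.719. Averaged over both knockouts and both diets the difference was 0.37 ± 0.10 (interval 0.15 to 0.58, unadjusted p = 0.00248), with an adjusted p of 0.0676 that passed in 6 of 30 alternatives (range 0.0253 to 0.163). The change of the TRAF3 effect with diet was 0.66 ± 0.24 (limma adjusted p = 0.114). The 2 knockouts share their controls within a diet, so their values on 1 diet are not independent of each other.

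**Figure D2:**
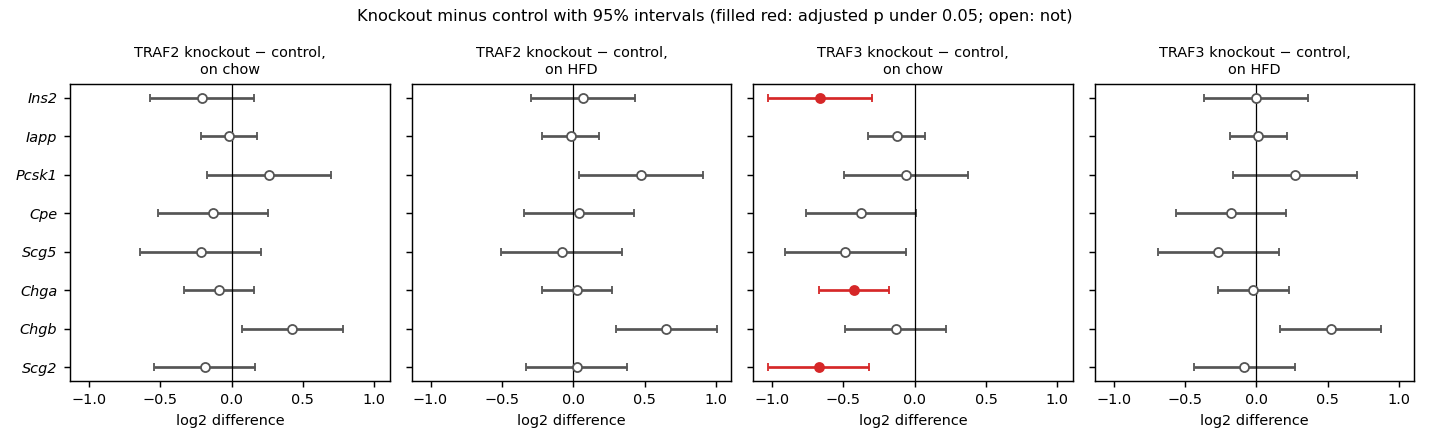
Knockout minus control log2 difference of each measured gene, with limma's 95% interval, for both knockouts on both diets (filled: adjusted p under 0.05 over all genes). The 3 filled points are Ins2, Chga and Scg2 in the chow TRAF3 knockouts, and the Chgb interval lies above 0 in the other 3 panels without a call.

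The 2 chromogranins could be compared within each array, where any factor that moved both by the same amount cancels. Chga minus Chgb was 1.19, 1.11 and 0.953 in chow controls and 1.32, 1.11 and 1.40 in HFD controls. It was 0.62, 0.579 and 0.51 for TRAF2 and 0.651, 0.682 and 1.04 for TRAF3 among the chow knockouts. It was 0.606, 0.624 and 0.731 for TRAF2 and 0.537, 0.833 and 0.836 for TRAF3 among the HFD knockouts. All knockout arrays lay below the control arrays of their diet except chow TRAF3 knockout 3, which lay above chow control 3.

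The knockout minus control change of this difference, averaged over the diets, was -0.49 log2 units (exact permutation test within diet, two-sided, p = 0.000283, adjusted over 2 tests 0.000567, with 6 control and 12 knockout arrays). The smallest p that this test allows is 0.00014. HFD against chow changed it by 0.07 (exact permutation p = 0.286, adjusted 0.286). The test shows that Chga and Chgb changed by unequal amounts and not which of them moved. Both knockouts carry RIPCre and the Cre status of the controls is not given, so the part of Cre itself cannot be told apart. In the chow TRAF3 knockouts the difference from control was -0.43 for Chga and -0.13 for Chgb. In the other 3 knockout groups it was -0.09 to 0.03 for Chga and 0.42 to 0.65 for Chgb. Chga was the member closest to the array maximum, and the part of this in the difference was not tested.

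**Figure D3:**
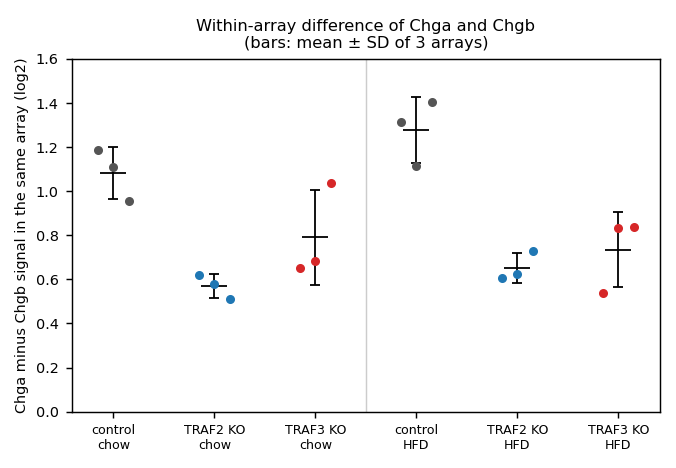
Chga minus Chgb log2 signal within each of the 18 arrays, by genotype and diet (points: arrays; bars: mean and SD of 3 arrays). The 6 controls lie between 0.953 and 1.40 and the 12 knockouts between 0.51 and 1.04, with chow TRAF3 knockout 3 at the top of the knockouts.

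Counted together, 3 of the 8 members (Ins2, Chga and Scg2) fell in the TRAF3 knockouts on chow at an adjusted p under 0.05, where 4.69% of all genes were called lower. All 8 differences were negative, with a median of -0.40 against -0.01 over all genes, and 4 of 8 (these and Iapp) lay below control without overlap, against 15.1% of all genes. Several marker scores moved with this result. Beta cell markers, a list that itself holds Ins2 and Iapp, scored -1.36 to -0.606 in the chow TRAF3 knockouts and 0.093 to 0.593 in the chow controls (7 of 8 measured, 5 called lower, median difference -1.47). The ductal score was -0.97, 0.15 and 0.289 in the chow controls against 0.708, 0.405 and 1.15 in their TRAF3 counterparts. It holds 7 measured markers of 9 listed, 1 of them called higher. Alpha cell markers scored -0.649 to -0.272 in the chow TRAF3 knockouts against -0.046 to 0.526 in the chow controls (3 of 5 measured, 1 called lower), and delta cell markers -0.496 to 0.003 against -0.129 to 0.338 (2 of 2 measured). The PP cell marker Ppy deviated by -0.359 to -0.055 against 0.013 to 0.148, without overlap. Macrophage markers scored -0.162 to 0.025 against -1.06 to -0.74 (8 of 8 measured, 3 called higher). Acinar markers overlapped, at -0.559 to 0.142 against -0.232 to 0.482 (9 of 11 measured, none called). The part of other cell types in the result was not tested, and in bulk islets fewer beta cells and less RNA per beta cell cannot be told apart.

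The count of 3 changed with the arrays compared and with marker scores in the fit. It was 0 without chow control 1, without chow control 2 or without chow TRAF3 knockout 3, and 1 (Scg2) without chow TRAF3 knockout 1. It was also 1 (Scg2) with the third array of every group left out, where Ins2 differed by -0.59 and Chga by -0.45 (limma adjusted p = 0.11 and 0.0591). When the ductal score was a covariate the count was 0, with differences of -0.45 for Ins2, -0.41 for Scg2 and -0.24 for Chga (limma adjusted p = 0.242, 0.23 and 0.308). When the acinar score was one it was 5, the other 2 being Cpe and Scg5. The ductal score did not overlap between chow controls and chow TRAF3 knockouts, so a fit that holds it takes up part of the genotype difference. Here and below, such a fit cannot tell ductal content from genotype.

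From chow to HFD within the TRAF3 knockouts, 1 of 8 members (Ins2) rose, against 2.66% of all genes called higher. All 8 differences were positive (median 0.27, all genes 0.02), and Ins2, Chga and Scg2 lay higher on HFD without overlap, 3 of 8 against 10.5% of all genes. Both comparisons use the same chow TRAF3 knockout arrays, so these values do not stand apart from those against control. For the change of the TRAF3 effect with diet, limma called 0 of 8 members, with 4 at an unadjusted p under 0.05 (Ins2, Chga, Chgb and Scg2), and it called 5.8% of all genes.

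In the TRAF2 knockouts limma called 0 of 8 members on chow, with 1 (Chgb) at an unadjusted p under 0.05, and 0.298% of all genes. It called 0 of 8 on HFD, with 2 (Pcsk1 and Chgb) at an unadjusted p under 0.05, and 0.252% of all genes. Chgb on chow, and both genes on HFD, were the members higher without overlap, 1 of 8 against 4.68% of all genes and 2 of 8 against 7.83%. The TRAF3 knockouts on HFD had 0 of 8 called by limma, with 1 (Chgb) at an unadjusted p under 0.05, and 2.52% of all genes. Chgb was the 1 of 8 members higher there without overlap, against 8.61% of all genes. The granule genes thus gave no call in these 3 comparisons, in which few genes were called at all for TRAF2.

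Over both knockouts and diets limma called 0 of 8 members, with 3 (Chgb, Scg2 and Scg5) at an unadjusted p under 0.05, and 2.8% of all genes. HFD against chow gave 0 of 8 in controls, with none at an unadjusted p under 0.05, where limma called 0.884% of all genes. All 8 differences were negative there, with a median of -0.10. In TRAF2 knockouts it also gave 0 of 8 in limma, with 0 at an unadjusted p under 0.05, against 1.96% of all genes. The change of the TRAF2 effect with diet gave 0 of 8 in limma, 0 at an unadjusted p under 0.05, and 0% of all genes. The TRAF3 against the TRAF2 knockout, averaged over diets, gave 0 of 8 in limma with 4 at an unadjusted p under 0.05 (Ins2, Chga, Chgb and Scg2), all 8 differences negative, and 0.275% of all genes called. The median of those 8 differences was -0.25.

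The members moved together from array to array to different degrees. Over the 18 arrays, the Pearson correlation of each member with the mean of the others was 0.905 for Scg2, 0.876 for Chga, 0.872 for Cpe, 0.806 for Ins2, 0.773 for Scg5 and 0.721 for Pcsk1. It was lower for Chgb (0.593) and Iapp (0.527). These values describe arrays that share groups and normalization, and no measure of RNA quality is given in the sources used here. The genes outside the list whose values were most like the mean deviation of the members over the 18 arrays were Ddx25 (r = 0.97, Spearman's rho = 0.934), Ece1 (0.963 and 0.907), Fbxl16 (0.962 and 0.93), Slc2a5 (0.955 and 0.94) and Twsg1 (0.955 and 0.93).

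Regulators of insulin gene transcription were lower in the same chow TRAF3 islets. Of 11 measured of 12 listed, 7 fell and none rose, with a median difference of -0.75, against 4.69% of all genes called lower. Mafa and Nkx6-1 are also on the beta cell marker list, so this count and that of the beta cell markers are not separate. Mafa, a beta cell activator of the insulin promoter, read 9.40 ± 0.29 in chow controls and 7.47 ± 0.65 in chow TRAF3 knockouts (mean and SD, n = 3 each), a difference of -1.93 ± 0.34 (limma adjusted p = 0.00307). Pdx1, which binds the insulin promoter and directs pancreas formation, fell by 1.41 on the log2 scale, Nkx6-1, a beta cell identity factor, by 1.47 and Nkx2-2 by 0.94 (limma adjusted p = 0.00341, 0.00461 and 0.0254). On HFD 1 of the 11, Foxa2, fell in TRAF3 knockouts, by 0.70 (adjusted p = 0.00649), where 0.848% of all genes were called lower. In chow TRAF2 knockouts Foxa2 was again the 1 of 11 that fell, by 0.68 (adjusted p = 0.0277), against 0.018% of all genes, and this call held in 22 of 30 alternatives. There, 10 of the 11 differences were negative, with a median of -0.55 and 6 at an unadjusted p under 0.05. Foxa2 was named after its values were seen.

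The 7 calls in the chow TRAF3 knockouts became 4 with only the compared samples in the fit, and 0 in the fit that held the ductal score. In the latter Mafa differed by -1.41, Pdx1 by -1.06 and Nkx6-1 by -0.90 (limma adjusted p = 0.0501, 0.055 and 0.0607), just past the threshold, and Nkx2-2 by -0.41 (adjusted p = 0.333).

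Other granule cargo and membrane proteins did not move as 1 group. Of 11 measured, 4 fell and 1 rose in the chow TRAF3 knockouts, where 6.33% of all genes were called higher, and the median difference was -0.02. Slc30a8, the zinc transporter that loads granules for insulin crystals, read 11.92 ± 0.36 in chow controls and 9.93 ± 0.49 in chow TRAF3 knockouts, a difference of -1.98 ± 0.33 (limma adjusted p = 0.00233). Pcsk1n, which encodes the PC1/3 inhibitor proSAAS, fell by 1.06, and Ptprn2, a granule membrane protein and autoantigen of type I diabetes, by 1.04 (adjusted p = 0.00496 and 0.00267). The fourth was Resp18, named after its value was seen, at -0.68 (adjusted p = 0.0169). Vgf, a granin-like protein, rose by 1.04 (limma adjusted p = 0.0285), and over both knockouts and diets by 0.87 (adjusted p = 0.0131). In the fit that held the ductal score, Slc30a8 (-1.36) and Ptprn2 (-0.78) kept their calls, Pcsk1n differed by -0.81 (limma adjusted p = 0.0751), and Vgf by 0.79 (adjusted p = 0.244).

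From chow to HFD within the TRAF3 knockouts, several of these genes moved the other way. Mafa rose by 1.97, Pdx1 by 1.11, Nkx6-1 by 1.08 and Nkx2-2 by 0.88, the 4 of 11 regulators called higher, against 2.66% of all genes. Slc30a8 rose by 1.62, Ptprn2 by 0.87 and Pcsk1n by 0.81, while Vgf fell by 1.01 and Pam, the amidating enzyme, named after its value was seen, by 0.58, where 6.01% of all genes were called lower. Their limma adjusted p-values lay under 0.05. These changes rest on the same chow TRAF3 arrays as the falls against control. Vgf was also lower on HFD than on chow in controls (-1.01, limma adjusted p = 0.0975) and in TRAF2 knockouts (-1.56, adjusted p = 0.0102). Its TRAF3 knockout minus control difference was 1.043 on chow and 1.045 on HFD. The change of this TRAF3 effect with diet was 0.002 (limma adjusted p = 0.998).

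Among other proprotein convertases and the acidification machinery, at most 1 gene of a list was called in a comparison. Furin, the convertase of the constitutive pathway, rose by 0.74 in the chow TRAF3 knockouts (limma adjusted p = 0.0426). It was 1 of 6 measured of 7 listed, against 6.33% of all genes called higher. The Furin difference was 0.26 when the ductal score was in the fit (adjusted p = 0.499). Pcsk6 fell by 0.52 from chow to HFD in the TRAF3 knockouts (adjusted p = 0.0412), 1 of 6 against 6.01% of all genes called lower. Pcsk5 rose by 0.55 from chow to HFD in the TRAF2 knockouts (adjusted p = 0.0441), 1 of 6 against 0.884% of all genes called higher. This call held in 10 of 29 alternatives. Pcsk5 was also higher on HFD in controls (0.30, limma adjusted p = 0.276) and in TRAF3 knockouts (0.43, adjusted p = 0.0541). It read 5.08 to 6.09 over all arrays, whose medians were 4.8 to 4.96. Of 12 genes of granule acidification, limma called 0 in the chow TRAF3 knockouts, with 1 at an unadjusted p under 0.05, and 11% of all genes in either direction. From chow to HFD in the TRAF3 knockouts Atp6v1h, a subunit of the proton pump, fell by 0.46 (limma adjusted p = 0.0364), 1 of 12 against 6.01% of all genes called lower.

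Of the 5 other islet hormones, 1 fell in the chow TRAF3 knockouts, against 4.69% of all genes: Ghrl, which encodes ghrelin, at -0.90 ± 0.23 (limma adjusted p = 0.0204). Ghrl read 6.57, 5.80 and 5.85 in chow controls and 4.91, 5.44 and 5.16 in chow TRAF3 knockouts, while the medians of the arrays were 4.8 to 4.96. Its difference was -0.55 when the ductal score was in the fit (adjusted p = 0.256). Without that score in the fit, all 5 hormone differences in the chow TRAF3 knockouts were negative, with a median of -0.47 and 4 at an unadjusted p under 0.05 in limma.

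**Figure D4:**
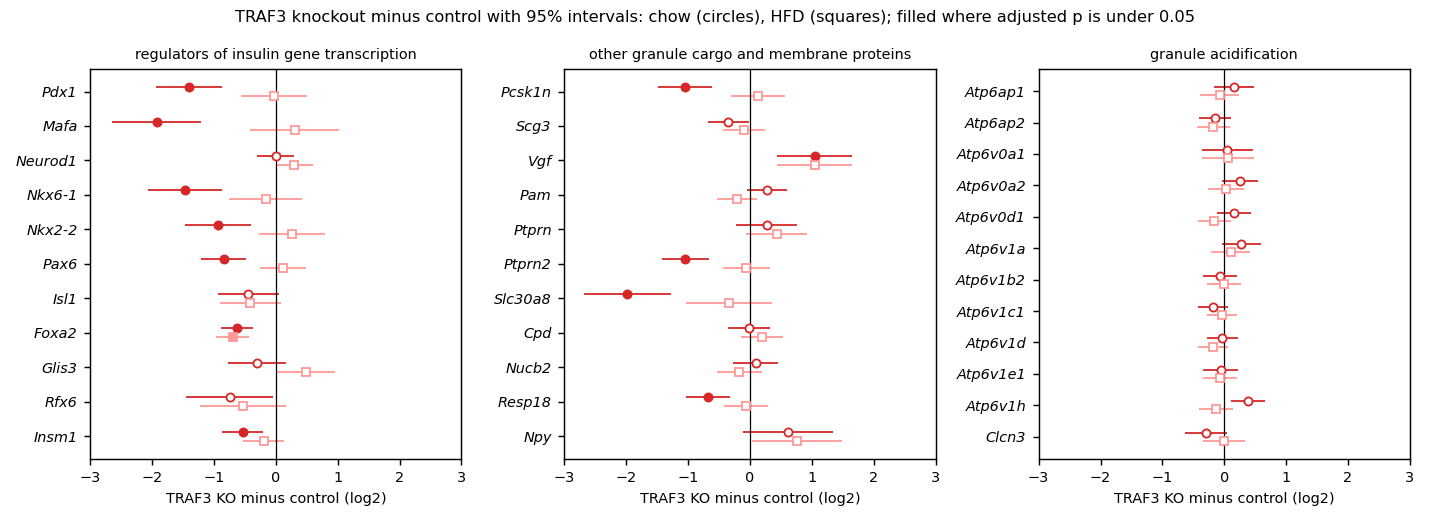
TRAF3 knockout minus control log2 difference with limma's 95% interval on chow (circles) and HFD (squares) for regulators of insulin gene transcription, other granule cargo and granule acidification genes (filled: adjusted p under 0.05). On chow 7 of 11 regulators and 4 of 11 cargo genes are filled and lower, Vgf is filled and higher, and no acidification gene is filled.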

How the data were processed

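Transcripts of pancreatic islets were measured on 18 single-colour Affymetrix arrays, labelled with biotin from 250 ng of total RNA per the labels' protocols. The values deposited by the authors are log2 signals, 1 for each probe set of an array. Per the submitters' processing notes they used RMA (background correction, quantile normalization and probe set summary) and limma, with no versions given. The genome build is not given in the sources used here. Values were used as deposited, with no filter.

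Of 41345 probe sets, 23521 had exactly 1 symbol in the platform annotation, 1814 several and 16010 none. Per gene, only the probe set of highest mean signal was kept (22180 genes). Differences were tested with limma 3.58.1 in R 4.3.3, by lmFit and eBayes defaults on 6 group means (12 residual and 3.69 prior degrees of freedom), two-sided, with Benjamini-Hochberg adjustment over all genes within each of 11 contrasts, with a threshold of 0.05 on the adjusted p. An error after ± is limma's standard error of a difference, or the SD where so named. The test was checked on simulated data. The labels do not say that each array is a separate animal, so the p-values measure the spread between these samples, and the number of arrays limits the precision.

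Marker scores are mean deviations, on the log2 scale, from each gene's average over all arrays. The Chga minus Chgb difference was tested by an exact permutation of labels within diet or genotype. The members and gene lists were chosen with earlier results of these data known. All members were named, and from each other list up to 4 genes with the largest changes among those passing in any of 7 two-group contrasts. Promoter sequences came from RefSeq (GRCm38.p6). Alternatives changed the normalization, the filter on dim genes, the variance model, the probe sets and samples in the fit, covariates, a replicate block, and left out each array in turn. The signal of the TRAF3 gene is not reported here.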

Additional observations from a re-analysis of the deposited data

Results flagged for a closer look

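The effect of the TRAF3 knockout differed between chow and HFD, by limma's interaction test adjusted over all genes, for 6 of the 13 named genes that are no members. These 13 were picked for their changes in comparisons that mostly use the same chow TRAF3 knockout arrays, so their count is partly set by the choice and is not comparable with the members, of which 0 of 8 were called with 4 at an unadjusted p under 0.05. Over all genes, 5.8% were called. The log2 difference between the effects (HFD minus chow) was 1.64 for Slc30a8 (adjusted p = 0.0493), 1.19 for Pcsk1n (0.0265), 0.99 for Ptprn2 (0.0326), 2.23 for Mafa (0.0168), 1.38 for Pdx1 (0.0351) and 1.36 for Ghrl (0.0252). Of 30 alternatives, the call held in 10 for Slc30a8, 23 for Pcsk1n, 17 for Ptprn2, 30 for Mafa, 19 for Pdx1 and 25 for Ghrl. Ghrl read 4.91 to 6.57 over all arrays, whose medians were 4.8 to 4.96. The differences between the effects for Ins2, Chgb, Scg2 and Chga were 0.66, 0.66, 0.59 and 0.41, and none passed. The ductal score was highest in 2 of the chow TRAF3 knockouts (0.708 and 1.15). In the fit that held this score Mafa kept its call (1.87, limma adjusted p = 0.0293) and Slc30a8 lost it (1.20, adjusted p = 0.0776). Since the score differs between the groups compared, that fit cannot tell its part in these differences.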

How the results depend on the processing

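No call of a gene named in the report changed direction under the alternatives run, nor did the Chgb and Pcsk1 differences of the TRAF2 knockouts on both diets and the TRAF3 knockouts on HFD, or those of Iapp, Cpe and Scg5 on chow in TRAF3 knockouts. For the TRAF3 knockout on chow the 3 calls became 5 in the fit with the acinar score and 0 in that with the ductal score, 1 with the third array of every group left out (chosen after seeing the data), and 0 to 3 when 1 array was left out. For HFD against chow in TRAF3 knockouts the 1 call became 3 with the acinar score, 2 with dim genes left out, 2 with trend and robust variance, and 0 with the ductal score, with arrays centred on their medians, with every probe set tested, with only the compared samples, with the third array of every group left out, and without the 2 lymphocyte-rich arrays (HFD TRAF3 knockout 2 and chow TRAF2 knockout 1, chosen after seeing the data). Leaving out 1 array gave 0 to 3. The 0 calls became 1, always Chgb, with the ductal score for TRAF2 on HFD and TRAF3 on HFD, and for both knockouts with dim genes left out, the ductal score, or trend and robust variance, with 0 to 1 when 1 array was left out. The TRAF3 by diet interaction gave 0 to 1 (Ins2, without chow TRAF2 knockout 1). The change in Chga minus Chgb stayed between -0.53 and -0.47 in all leave-one-out fits, and was -0.54 with the third arrays left out. With the replicate number as a block the calls were 3 in TRAF3 on chow, 1 for HFD against chow in TRAF3 knockouts and 0 elsewhere, and Slc30a8 lost its interaction call (adjusted p = 0.0505). In 0 of 15 pairs of groups did every same-numbered pair correlate over 0.1 (range -0.549 to 0.529), so the numbers were not taken to pair the samples. The third arrays of the 5 groups other than chow TRAF2 knockouts did correlate over 0.1 in 10 of 10 pairs (0.132 to 0.529), and in these arrays 7 or 8 of the 8 members lay below their group mean. Planned comparisons with Ins1, Pcsk2 or a second probe set of a member could not be run, since the table gave none with 1 symbol, and the exact tests were therefore adjusted over 2 rather than 6.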
